A study of Mus musculus with 4 samples.

Results

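The 10 genes described here encode inhibitory receptors of T cells that lie outside the CD28 family, the activating receptor CD226, a pair of ectonucleotidases and the TOX transcription factors. They were chosen by name from the table of 26207 genes, and all 10 were present: Havcr2 (TIM-3), Lag3 (LAG-3), Tigit, Cd96, Cd226, Cd160, Entpd1 (CD39), Nt5e (CD73), Tox and Tox2. The data were bulk RNA-seq of T helper 2 (Th2) cells of the mouse, and the labels name spleen as the tissue. The 4 libraries form 2 groups of 2, cells given phosphate-buffered saline (PBS) and cells given dopamine at 10 µM, a catecholamine neurotransmitter. The labels give no strain, age, sex, genotype or length of treatment, and do not say whether the replicates were separate cultures or animals. The spread behind each p-value is therefore that of these libraries alone and may be technical.

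TIM-3, LAG-3, TIGIT, CD96 and CD160 are surface receptors known mainly for damping T cell responses, and several appear together on T cells under long stimulation. TIGIT, CD96 and CD226 bind the same ligand, CD155 (Pvr), with CD226 giving an activating signal and TIGIT an inhibitory signal. CD39 turns extracellular ATP into AMP, and CD73 turns AMP into adenosine, which dampens T cells. TOX is a DNA-binding factor with an HMG box that CD4 T cells need in the thymus and that is known in exhausted T cells.

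With dopamine, transcripts of Havcr2, Entpd1, Tigit and Lag3 rose and transcripts of Tox, Cd226, Cd160 and Nt5e fell. The largest rise was in Havcr2, 4.79-fold, and the largest fall in Tox, 2.50-fold. The set thus had 4 of 10 members higher and 4 lower by limma at an adjusted p of 0.05, where 21.3% of all genes passed, 14.3% higher and 7.0% lower. Among genes with a mean of 20 to 1000 normalized counts, where every member but Tox2 lies, 35.7% of 9353 passed. The median log2 change of the 10 genes was -0.23, against -0.08 for all genes tested. Among genes with a mean of at least 100 normalized counts the median was 0.20. In 9 of 10 members the dopamine libraries were both above or both below the PBS libraries, which also held for 58.9% of all genes.

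Values below are the authors' normalized read counts, that is, reads divided by a size factor for each library. Depth was 5717408 reads assigned to genes in the shallowest library, PBS A, and 11492182 to 14167357 in the other libraries, here called PBS B, dopamine A and dopamine B. Each read stood for 1.70 normalized counts in PBS A and for 0.766 to 0.971 elsewhere. Differences are given as log2 changes, the dopamine mean minus the PBS mean of log2(value + 1), each with limma's standard error (SE) and a p adjusted by Benjamini-Hochberg over every gene. The variance that limma borrowed from other genes carried 42.4 prior degrees of freedom, so the tests rest mostly on this pooled spread. Of all calls 67.1% were higher, but 36.2% when the libraries were rescaled on genes averaging 100 normalized counts or more (high-count scaling). With that scaling the median log2 change over all genes was -0.26 in place of -0.08, and 4 members were then higher and 5 lower. The Th2 label was checked on Cd4, at 4236 to 4271 with PBS and 4586 to 4749 with dopamine, on Gata3, at 231 to 243 and 207 to 241, and on Il4, at 151 to 178 and 723 to 784. In bulk samples fewer cells of a type and less RNA per cell cannot be told apart.

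The 250 bases before the transcription start, from RefSeq on GRCm38.p6, are shown for 3 receptor and enzyme genes that rose (Havcr2, Tigit and Entpd1) and 1 that fell (Cd160), so that the sequences beside these changes can be read. The table of windows matched 7 of the 10 genes. Lag3, Cd226 and Tox were not matched. Capitals mark the letters of the AP-1 motif TGANTCA, the NFAT core GGAAA or the Runx motif TGTGGT on either strand, so the latter also appear as TTTCC and ACCACA.
Havcr2, chr11:46454681-46454930, plus strand: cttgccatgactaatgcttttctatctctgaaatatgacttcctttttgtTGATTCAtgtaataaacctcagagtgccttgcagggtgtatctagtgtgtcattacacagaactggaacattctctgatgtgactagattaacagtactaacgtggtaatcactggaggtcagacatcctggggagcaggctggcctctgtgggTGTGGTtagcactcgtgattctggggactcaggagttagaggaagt
Tigit, chr16:43664185-43664434, minus strand: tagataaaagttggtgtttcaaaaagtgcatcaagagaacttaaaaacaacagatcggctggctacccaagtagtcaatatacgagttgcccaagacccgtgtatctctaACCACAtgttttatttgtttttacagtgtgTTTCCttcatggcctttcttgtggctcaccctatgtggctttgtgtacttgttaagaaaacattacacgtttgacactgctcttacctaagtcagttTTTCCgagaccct
Entpd1, chr19:40612116-40612365, plus strand, the first of its 2 windows, with no capital letters: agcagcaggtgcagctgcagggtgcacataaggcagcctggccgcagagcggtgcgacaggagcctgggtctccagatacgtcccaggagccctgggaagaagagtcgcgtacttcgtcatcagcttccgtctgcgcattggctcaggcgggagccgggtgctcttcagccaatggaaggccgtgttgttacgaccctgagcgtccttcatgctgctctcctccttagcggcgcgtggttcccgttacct
Cd160, chr3:96829352-96829601, minus strand, the first of its 2 windows: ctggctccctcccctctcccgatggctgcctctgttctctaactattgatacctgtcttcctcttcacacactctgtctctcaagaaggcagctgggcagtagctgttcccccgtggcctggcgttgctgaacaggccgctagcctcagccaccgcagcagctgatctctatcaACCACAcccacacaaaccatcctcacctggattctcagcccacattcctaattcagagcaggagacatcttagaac

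Of these windows that of Havcr2 held an AP-1 motif, which 6.75% of the 32851 windows of the same length hold. It began 200 bases before the start. The NFAT core, held by 55.6% of windows, occurred at 110 and 13 bases before the start of Tigit. The Runx motif, in 14.0% of windows, was found in those of Havcr2, Tigit and Cd160. Windows not printed include those of Cd96 and Tox2, which did not pass. Both held NFAT cores, and Cd96 a Runx motif as well. The window of Nt5e, which fell, held no AP-1, NFAT or Runx motif. The full cAMP response element TGACGTCA, in 1.55% of windows, was in no window of the 7 genes. Its short form TGACG, which lies inside the full one and is in 17.8% of windows, occurred 135 bases before this Entpd1 start. Entpd1 and Cd160 each have another start in the table, whose windows are not printed. That of Entpd1 (chr19:40659520-40659769) held NFAT cores at 233 and 130 bases before the start and TGACG at 183. That of Cd160 (chr3:96814522-96814771) held an NFAT core at 145, a Runx motif at 101 and TGACG at 63 bases before the start. Also searched on both strands were STAT (TTCNNNGAA), T-box (TCACACCT), E-box (CACCTG), TCF (CTTTGA), Ets (GGAAG, which can overlap GGAAA), KLF (CACCC), NF-kB and GATA motifs. A match is a description of letters and not of a bound site.

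**Figure D1:**
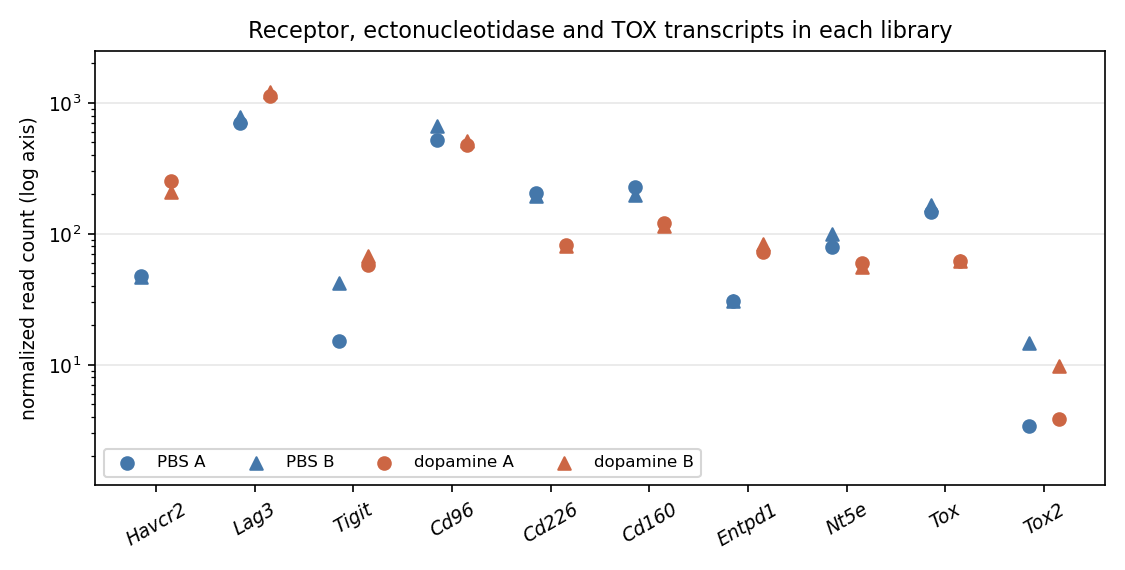
Normalized read counts (log axis) of the 10 genes in each of the 4 libraries, PBS in blue and dopamine in orange, with circles for library A and triangles for library B. Havcr2, Lag3, Tigit and Entpd1 sit higher in both dopamine libraries, Cd96, Cd226, Cd160, Nt5e and Tox sit lower, and Tox2 overlaps between the groups.

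Havcr2 encodes TIM-3, a receptor known from Th1 cells and exhausted T cells. It lies on chromosome 11 from 46454935 to 46481255 (GENCODE M21, mm10, as for all locations here). It was at 47.6 in PBS A and 46.7 in PBS B, and at 252 in dopamine A and 209 in dopamine B. Both dopamine libraries were more than 4 times either PBS library. The log2 change was 2.26 (SE 0.17, adjusted p = 1.50e-14), which ranked 37 among the 3743 genes called higher. Over 14 alternative analyses it stayed between 2.07 and 2.40 and passed each time.

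The other TIM genes stand near Havcr2 on chromosome 11, with Timd2 188 kb, Havcr1 254 kb and Timd4 330 kb away. Timd2, encoding TIM-2, was at 10.2 and 13.8 with PBS and 33.2 and 33.0 with dopamine (log2 change 1.41, adjusted p = 0.00199), not called by DESeq2. Havcr1, which encodes TIM-1, a costimulatory receptor known in Th2 cells, was at 0 and 10.7 with PBS and 4.63 and 7.77 with dopamine (adjusted p = 0.375), on 0 to 14 reads per library. Of the 5 TIM and TOX relatives listed, 2 rose (Timd2 and Tox4) and none fell, where 14.3% of all genes rose and 7.0% fell.

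Lag3 encodes a relative of CD4 that binds MHC class II. It lies on chromosome 6 from 124904361 to 124911705, 16.1 kb from Cd4, with no protein-coding gene between them. It was at 698 and 785 with PBS and 1129 and 1212 with dopamine. The groups did not overlap, and the log2 change was 0.66 (SE 0.09, adjusted p = 6.97e-08). Its neighbour Cd4 had a log2 change of 0.13 (adjusted p = 0.122). The estimate for Lag3 was 0.46 to 0.74 over the 14 alternatives, which all called it.

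Transcripts of ligands of TIM-3 and LAG-3 in the same libraries moved in different directions, and which cells they came from was not tested. Lgals9, encoding galectin-9, a TIM-3 ligand, was at 2242 and 2335 with PBS and 1175 and 1401 with dopamine (log2 change -0.83, adjusted p = 1.35e-11). Lgals3, encoding galectin-3, a LAG-3 ligand, was at 129 and 123 with PBS and 422 and 447 with dopamine (1.78, adjusted p = 1.98e-15). Both calls held in all alternatives that were run.

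TIGIT is the inhibitory member of the group of receptors for CD155. Tigit lies on chromosome 16 from 43648867 to 43664146. It was at 15.3 in PBS A, 42.1 in PBS B, 57.9 in dopamine A and 68.0 in dopamine B. PBS A stands well below PBS B, on 9 reads (95% Poisson interval 4.12 to 17.1 reads, counting error only) against 55 at greater depth. As normalized counts the intervals were 6.99 to 29.0 in PBS A and 31.7 to 54.8 in PBS B, without overlap. Why these libraries differed was not tested. The log2 change was 1.27 (SE 0.29, adjusted p = 9.66e-04), and it ran from 0.56 without PBS A (adjusted p = 0.177) to 1.97 without PBS B (adjusted p = 3.92e-04). With upper-quartile scaling in edgeR it was 0.75 (adjusted p = 0.0379), and in the authors' deposited table it was 1.04 with an adjusted p of 0.0834. The rise of Tigit is therefore called with all 4 libraries by limma and edgeR but not without PBS A or by DESeq2.

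Cd226 encodes the activating counterpart of TIGIT, an adhesion and costimulatory receptor also found on platelets and natural killer cells. It lies on chromosome 18 from 89176967 to 89272229. It was at 204 and 195 with PBS and 81.8 and 80.6 with dopamine. Replicates were close and the groups far apart, with a log2 change of -1.28 (SE 0.16, adjusted p = 1.01e-08). Over the 14 alternatives the value was -1.48 to -1.25, with a call each time.

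Transcripts of platelets and of basophils and mast cells moved the same way as Cd226. All 6 platelet markers fell, and their summed level was 2577 to 2732 with PBS and 970 to 1016 with dopamine, led by Itgb3 and Pf4. All 6 basophil and mast cell markers fell, with sums of 1561 to 1865 and 454 to 552, led by Cpa3 and Mcpt8, and no marker of either list was at 0 reads in any library. Their part in the fall of Cd226 was not tested. The 6 natural killer cell markers present summed to 410 to 416 with PBS and 444 to 448 with dopamine, and their part in the result was not tested. Eomes, which T cells also express, rose (log2 change 1.08) and Txk fell (-0.80), while 4 did not pass. Of these 4, Ncr1 was at 1.53 to 10.2 with PBS and 1.94 to 3.86 with dopamine and Klrb1c at 8.43 to 13.6 and 3.88 to 4.63. Among the 6 markers 3 averaged under 5 normalized counts. The sum was thus mostly Eomes and Txk, which moved in opposite directions.

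Cd96, the remaining CD155 receptor of the set, lies on chromosome 16 from 46035657 to 46120251, 2.37 Mb from Tigit. It was at 523 and 667 with PBS and 475 and 511 with dopamine. The PBS libraries differed from each other more than PBS A did from dopamine B, and the log2 change of -0.26 (95% interval -0.47 to -0.05) did not pass (adjusted p = 0.0683). This value depended on the setting. With edgeR and TMM scaling, which called 34.0% of 15329 genes and 9 of the 10 members, it was -0.40 (adjusted p = 0.00159). High-count scaling gave -0.46 (adjusted p = 4.39e-04), and leaving out PBS B gave -0.09 (adjusted p = 0.625).

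The ratio of a pair of genes within a library does not depend on the scaling between libraries. These ratios were picked after the values were seen. Normalized counts of Tigit per count of Cd226 were 0.0750 and 0.217 with PBS and 0.708 and 0.843 with dopamine, a 6.06-fold shift. It was 3.57-fold without PBS A, where Tigit had 9 reads, and 10.3-fold without PBS B. Those of Cd96 per Cd226 were 2.57 and 3.43 with PBS and 5.81 and 6.34 with dopamine, a 2.05-fold shift. Both ratios were higher in both dopamine libraries, and both contain the 2.44-fold fall of Cd226 described above. Cd96 itself did not rise (log2 change -0.26). With 2 libraries a group a 2-sided exact permutation test cannot go below 0.333, which was its value for each of the 6 ratios computed.

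**Figure D2:**
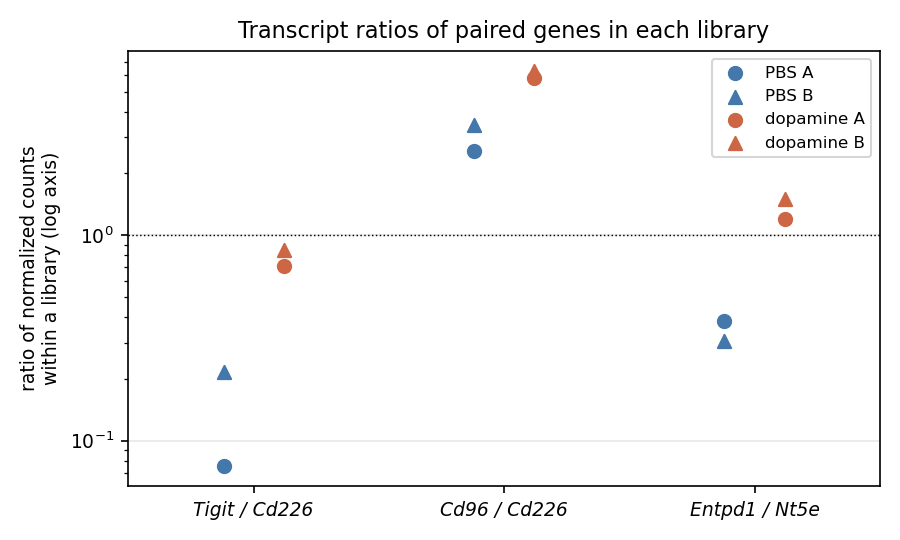
Ratios of normalized counts within each library (log axis) for Tigit over Cd226, Cd96 over Cd226 and Entpd1 over Nt5e, PBS in blue and dopamine in orange. In each pair both dopamine libraries lie above both PBS libraries, from 0.0750 and 0.217 to 0.708 and 0.843 for Tigit over Cd226.

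Pvr, encoding the shared ligand CD155, was at 703 and 875 with PBS and 517 and 600 with dopamine (log2 change -0.49, adjusted p = 1.81e-04) and was not called with PBS B left out (-0.34). Crtam, an activating receptor of the nectin-like family, was at 255 and 244 with PBS and 387 and 384 with dopamine (0.63, adjusted p = 3.54e-05). In the whole list of 18 ligands and surface partners present, 3 rose and 4 fell, with a median log2 change of -0.14. After high-count scaling 2 rose and 6 fell. In the main fit 14.3% of all genes rose and 7.0% fell, and 35.7% of those with a mean of 20 to 1000 passed. The nectin genes Nectin1, Nectin2, Nectin3 and Nectin4 reached at most 21.6 normalized counts in any library and did not pass.

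CD160 is an inhibitory receptor anchored in the membrane by a lipid, and HVEM (Tnfrsf14) is its partner. Cd160 lies on chromosome 3 from 96798763 to 96829351. It was at 229 and 199 with PBS and 120 and 116 with dopamine, so the groups did not overlap. The log2 change was -0.85 (SE 0.14, adjusted p = 1.07e-05) and was -1.05 to -0.75 over the 14 alternatives, with a call in each. Its exons share 68 bases with Pdzk1 on the other strand, which was at most at 6.79 normalized counts. Tnfrsf14 was at 183 and 208 with PBS and 197 and 192 with dopamine, a log2 change of -0.00 (adjusted p = 0.983).

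The ectonucleotidase genes went in opposite directions. Entpd1, on chromosome 19 from 40612366 to 40741602, encodes CD39. It was at 30.6 in both PBS libraries, at 72.5 in dopamine A and at 83.5 in dopamine B, from 18 to 94 reads per library. The log2 change was 1.32 (SE 0.23, adjusted p = 1.79e-05), with a range of 1.13 to 1.42 over the 14 alternatives and a call in each. B cells and regulatory T cells also carry CD39. Of 5 B cell markers 3 rose, with a summed level of 126 to 160 with PBS and 340 to 346 with dopamine. Cd79a (log2 change 0.95, adjusted p = 0.0594) and Pax5 (-0.06, adjusted p = 0.922) did not pass. The part of B cell transcripts in the rise of Entpd1 was not tested. The 4 regulatory T cell markers summed to 296 to 305 with PBS and 358 to 364 with dopamine, and their part was not tested either. Ikzf2, encoding Helios, rose (log2 change 0.57, adjusted p = 0.00169). Foxp3, the defining factor of these cells, fell from 27.6 to 32.3 with PBS to 10.7 to 14.7 with dopamine (-1.19, adjusted p = 0.0110), a call lost in DESeq2 and without PBS A, PBS B or dopamine B.

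Nt5e, on chromosome 9 from 88327197 to 88372092, encodes CD73, the enzyme of the next step. It was at 79.8 and 100.4 with PBS and 60.2 and 55.3 with dopamine. The log2 change was -0.62 (SE 0.20, adjusted p = 0.0184). The call did not hold without PBS B (-0.46, adjusted p = 0.173), without dopamine B (-0.57, adjusted p = 0.143) or in the authors' deposited table (-0.66, adjusted p = 0.134). Counts of Entpd1 per count of Nt5e were 0.383 and 0.305 with PBS and 1.21 and 1.51 with dopamine, a 3.94-fold shift.

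Of 20 other genes of nucleotide and adenosine handling, 1 rose and 6 fell, with a median log2 change of -0.21. At a minimum of 5 CPM 4 rose and 5 fell, and with the replicate block 4 rose and 6 fell. Over all genes 14.3% rose and 7.0% fell in the main fit, and 35.7% passed among those with a mean of 20 to 1000. At the minimum of 5 CPM 3889 of all 9687 genes tested rose and 894 fell. Enpp1, an ectoenzyme that splits ATP, was at 273 and 267 with PBS and 157 and 167 with dopamine (-0.74, adjusted p = 2.05e-05). Dpp4, which holds adenosine deaminase at the surface, had a log2 change of -0.46, and P2rx7, an ATP-gated channel, one of -0.81 that was not called without dopamine A. The gene that rose was Adk, encoding adenosine kinase, which removes adenosine inside the cell (0.54, adjusted p = 1.17e-06). Adora2a, the main adenosine receptor of T cells, was at 119 and 145 with PBS and 125 and 127 with dopamine (-0.06, adjusted p = 0.839).

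Tox lies on chromosome 4 from 6686353 to 6991557. It was at 148 and 165 with PBS and 61.7 and 62.1 with dopamine. The dopamine libraries were nearly equal and below both PBS libraries, with a log2 change of -1.32 (SE 0.17, adjusted p = 5.38e-08). The 14 alternatives gave -1.54 to -1.24 and called it each time. The antisense gene Gm11802 shares 260 exon bases with Tox, and no source used here gives the strand setting of the counting.

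Tox2, on chromosome 2 from 163203125 to 163324170, was at 3.40 and 14.6 with PBS and 3.86 and 9.71 with dopamine, on 2 to 19 reads per library. The groups overlapped, and no difference was detectable at this depth (log2 change -0.20, 95% interval -1.40 to 1.01, adjusted p = 0.852). Tox4, a broadly expressed relative, was at 1514 and 1421 with PBS and 1862 and 1931 with dopamine (0.37, adjusted p = 1.58e-04), not called after high-count scaling (0.18).

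**Figure D3:**
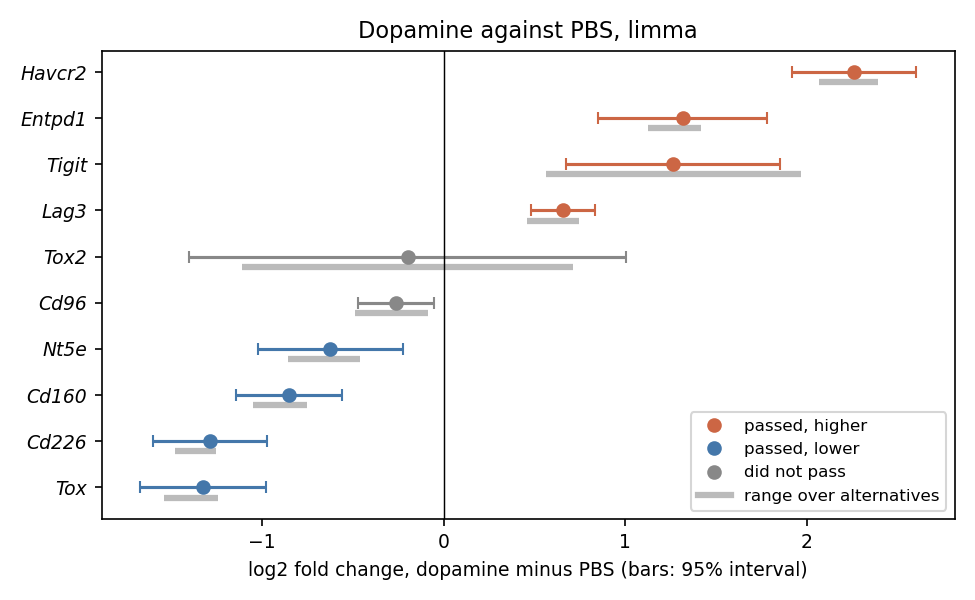
Log2 fold changes of the 10 genes, dopamine minus PBS, with limma's 95% intervals (points and bars) and the range over the alternative analyses (grey bars under each point). The 4 genes that rose and the 4 that fell keep their sign throughout, and Tox2 crosses 0.

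Transcription factors known around these receptors changed in both directions. Of 22, 13 rose and 5 fell, with a median log2 change of 0.41. After high-count scaling, 10 rose and 5 fell. In the main fit 14.3% of all genes rose and 7.0% fell, and 35.7% of those with a mean of 20 to 1000 passed. Irf4, induced by antigen receptor signalling, went from 7520 and 7721 to 13931 and 15265 (log2 change 0.94). Id2 (0.98) and Tbx21, which encodes the Th1 factor T-bet (0.97), rose too, while Myb fell (-0.75). Adjusted p-values of these 4 genes were at most 1.52e-09. Tcf7, encoding the memory factor TCF-1, was at 389 and 462 with PBS and 295 and 329 with dopamine (-0.44, adjusted p = 0.00294), and lost its call with PBS B or dopamine A left out. Nr4a1, an early gene, had 0.35 (adjusted p = 0.0150) and Nfatc1, encoding an NFAT factor known to act on Tox, 0.31 (adjusted p = 0.0438). Neither was called after high-count scaling, and Nfatc1 lost its call in 11 of 14 alternatives.

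Receptors of other families, mostly inhibitory, were also mixed. Of 14 listed, 5 rose and 2 fell, with a median log2 change of 0.24, and 2 rose and 2 fell after high-count scaling. The list also holds the costimulatory receptor genes Tnfrsf9 and Tnfrsf18. Over all genes 14.3% rose and 7.0% fell in the main fit, and 35.7% passed among those with a mean of 20 to 1000. Lilrb4a, an immunoglobulin-like receptor, went from 287 and 280 to 1053 and 1050 (1.89, adjusted p = 2.91e-20), though its reads may be shared with its near-identical neighbour Lilr4b. Cd5, a brake on antigen receptor signalling, had a log2 change of 0.76 (adjusted p = 1.23e-10). Ctla4 went from 294 and 382 to 161 and 167 (-1.02, adjusted p = 3.89e-08), and Tnfrsf9, a costimulatory receptor listed with this group, had -0.50 (adjusted p = 2.83e-07). Pdcd1, encoding PD-1, was at 379 and 520 with PBS and 505 and 542 with dopamine (0.24, adjusted p = 0.134).

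Of 12 genes for signalling proteins below the receptors, 2 rose and 3 fell, with a median log2 change of 0.12, and 0 rose and 4 fell after high-count scaling. Over all genes 14.3% rose and 7.0% fell in the main fit, and 35.7% passed among those with a mean of 20 to 1000. Plcg1, a phospholipase of antigen receptor signalling, had the smallest p of the 12 (-0.50, adjusted p = 5.05e-07). The kinase gene Fyn (-0.28) and the adaptor gene Grap2 (-0.31) fell but were not called without PBS B or without dopamine A, and the kinase gene Prkcq (0.24) was not called without PBS A, without dopamine B or after high-count scaling. Of the 2 proteases that shed TIM-3 and LAG-3, Adam17 rose (0.31, adjusted p = 0.00740) and Adam10 did not pass (-0.16, adjusted p = 0.0722), although 8 of 14 alternatives called it lower, edgeR and high-count scaling among them. Adam17 was not called after high-count scaling (0.11), without PBS A or without dopamine B.

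**Figure D4:**
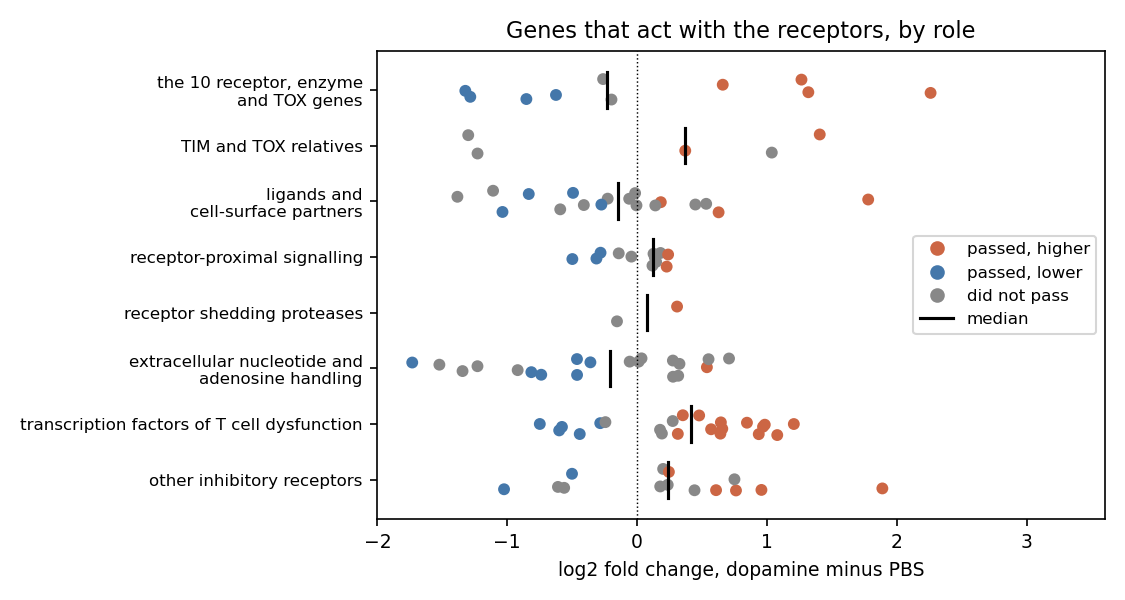
Log2 fold changes of the 10 genes and of 7 lists of genes that act with them, dopamine minus PBS. Each point is a gene, coloured by whether it passed limma's test, and black lines are medians, at -0.23 for the 10 genes and 0.41 for the transcription factors.

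Levels of the 10 genes were compared with each other as normalized counts per kilobase of merged exons, the union of the exons of a gene's transcripts. With PBS the order of these levels was Lag3 at 352, Cd96 at 273, Cd160 at 81.1, Cd226 at 40.7, Tigit at 31.2, Tox at 20.6, Havcr2 at 17.3, Nt5e at 10.5, Entpd1 at 5.49 and Tox2 at 2.64. Tigit ranged from 16.6 to 45.9 and so overlapped Cd226, Tox and Havcr2, and other neighbours in this order did not overlap. With dopamine the order was Lag3 at 555, Cd96 at 226, Havcr2 at 84.7, Tigit at 68.5, Cd160 at 44.6, Cd226 at 16.6, Entpd1 at 14.0, Tox at 8.14, Nt5e at 6.71 and Tox2 at 1.99, with no overlap between neighbours. On this per-kilobase scale Havcr2 moved from place 7 to place 3, and Tox from place 6 to place 8.

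The genes whose values over the 4 libraries lay closest to each changed member were found by Euclidean distance of centred log2 values among 10487 genes with a mean of at least 20. For Havcr2 they were Lilr4b, Il2 and Il4, and for Entpd1 Gadd45g, Snx9 and Junb. For Cd226 they were Nfe2, Emilin2 and Fam189b, and for Tox Icos, Dnah8 and Samd9l. For Lag3 the nearest was Cars, for Tigit Kbtbd4, for Cd160 Ndrg1 and for Nt5e Mov10. With 4 libraries such a distance mostly reflects the size of the difference between the groups.

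Markers of CD8 T cells, which carry most of these receptors, were low, and 1 of the 2 passed. Cd8a and Cd8b1 together were at 95.0 to 107 with PBS and 206 to 209 with dopamine, against 4236 to 4749 for Cd4. Cd8a rose (log2 change 1.96), while Cd8b1 did not pass (0.41, adjusted p = 0.106). The part of CD8 T cell transcripts in the rises of Havcr2, Lag3 and Tigit was not tested. Dendritic cell markers, another known source of Havcr2, summed to 110 to 120 with PBS and 102 to 116 with dopamine, with 1 of 6 lower. Monocyte and macrophage markers summed to 351 to 352 with PBS and 225 to 255 with dopamine, with 3 of 6 lower. The dendritic cell marker Siglech had 0 reads in PBS A, and no other marker of these lists was at 0 in any library.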

How the data were processed

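Per the labels' protocols, total RNA went into TruSeq stranded mRNA libraries. The submitters' processing notes name mm10, FastQC 0.11.2, TopHat2 2.0.13, HTSeq 0.6, DESeq2 and R 3.6.2. The deposited table gives, per the file headers, the authors' DESeq2 log2 fold change, Wald score, raw p-values and adjusted p-values. The authors' 4 library columns hold a signal: read counts divided by a size factor per library. All values were whole multiples of 1 read (tolerance 0.01), so reads were recovered. Columns carry other numbers than the sample titles, so each was matched to its group only. There were 0 columns of other samples.

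The test was limma 3.58.1 (R 4.3.3), with eBayes and its trend option, on log2(value + 1) for all 26207 genes, unfiltered and 2-sided, with Benjamini-Hochberg adjustment at 0.05. The added 1 understates changes of low genes. For Tigit the log2 change was 1.27 with it and 1.30 with 0.1 added. By edgeR with TMM, which differs in more than the added value, the log2 change of Tigit was 0.83. The fit was also run on simulated counts, with the same spread for every gene and changes set only in well-counted genes. That run cannot speak to low genes or to the choice of scaling, and no result here rests on it. Alternatives were edgeR 4.0.16 and DESeq2 1.42.0 on recovered reads, other scalings, a pseudocount of 0.1, a minimum of 5 CPM, a block and leaving out each library. For ratios, leaving out libraries was chosen after seeing the data. The genes and lists were chosen with earlier results of these data known. Named are all 10 genes, up to 4 called genes with the smallest p per list, the leading 2 markers per cell type where used, the 3 nearest genes and a few fixed genes whatever their p. Gata3, Il4, Cd4, Foxp3, Ncr1, Klrb1c, Adam10, Timd4, Pdzk1, Siglech and the nectin genes lie outside this rule and were named after their values were seen. The same holds for Il5, Il13, Cd79a and Pax5.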

Additional observations from a re-analysis of the deposited data

How the results depend on the processing

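Of the 10 genes, 6 (Havcr2, Lag3, Cd226, Cd160, Entpd1 and Tox) kept direction and call in each of 14 alternatives, with 6 to 9 members called in all. Tigit (not tested at a minimum of 5 CPM) and Nt5e lost their calls in 2 and 3 alternatives, and Cd96 gained one in 9. Tox2 turned from -0.20 to 0.71 without PBS B and 0.37 without dopamine A, with a lowest value of -1.11 over the libraries left out; the cause was not tested. Of all genes, 5577 passed, 3261 by DESeq2, 2914 without PBS A, 3276 without dopamine B and up to 4299 without dopamine A; fewer samples were fitted in the latter. Higher and lower calls were 3743 and 1834, against 2013 and 3149 with upper-quartile scaling in edgeR, 1806 and 3178 after high-count scaling, 2542 and 719 by DESeq2 and 3889 and 894 at a minimum of 5 CPM; with a library left out, lower calls were 762 to 1389. The column number as a replicate block gave 6999 calls and called 9 members, Cd96 included (adjusted p = 0.00890). Deviations of same-numbered libraries had a correlation of 0.214 across 8492 genes, and the numbers may not mark pairs. Of 93 genes in the lists, 47 passed, with 36 by DESeq2 and 55 with the replicate block. In the main fit 21.3% of all genes passed, and 35.7% of those with a mean of 20 to 1000. At a minimum of 5 CPM, 48 list genes passed, where 4783 of all 9687 genes tested did. That minimum leaves out low list genes such as Havcr1 and Tox3, so the 48 are of fewer than 93 genes. In the main fit 27 list genes rose and 20 fell, against 16 and 24 after high-count scaling. Coding lengths were not run for the order of levels, since exon lengths were at hand. Depth limits Tox2. Tigit had 9 reads in PBS A, and its counting intervals in PBS A and PBS B did not overlap.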
